A study of Arabidopsis thaliana with 48 samples.

Results

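The root cap fraction is the ribosome-bound mRNA of Arabidopsis thaliana root cells in which the BRN2 promoter is active, and its early response to brassinolide is described here. Its members are 4 of the 48 libraries of the series, taken by their labels: 2 libraries of pBRN2 roots after 3 h of 100 nM brassinolide (BL), and 2 libraries of pBRN2 roots at 0 h. Both groups were 6-day-old Col-0 seedlings grown in continuous light, and both carried ribosomes with a FLAG tag expressed from the BRN2 promoter, which the labels assign to the lateral root cap and columella. Polysomes were immunopurified through the tag, so each library holds mRNA in translation in those cells and not the whole mRNA of the root. The series follows 8 lines, each with the tag under 1 promoter, at 0, 3 and 8 h, in what its design text calls biological repetitions. The lines labelled pGL2(pGL2BRI1), pGL2(pSCRBRI1) and pSCR(pSCRBRI1) also name the brassinosteroid receptor BRI1 under a promoter. They stand outside the 30 Col-0 libraries and enter here only the shared estimate of the spread. Its title speaks of opposing brassinosteroid signals from different tissues of the root.

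Brassinolide is the most active of the brassinosteroids, the steroid hormones of plants. It binds the receptor kinase BRI1 at the cell surface, and the signal ends in the nucleus, where the transcription factors BZR1, BES1 and their homologs raise some genes and lower others, including the genes for brassinosteroid synthesis. The root cap is the sheath of cells around the meristem that protects it, senses gravity and is shed from the outside. Its cells are made and lost continuously, and it relays auxin from the root tip to the outer tissues.

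Total counts ran from 29636030 to 34434219 in the 4 libraries and from 20556381 to 37685541 in the series. Of 33715 entries, 20995 had enough counts to be tested. The summed level of 11 root cap markers lay between 5103 and 8229 CPM (read counts relative to the scaled library size) at 3 h and between 6316 and 7849 CPM at 0 h, against 829 and 895 CPM in the untreated whole root (35S line). CEL5, a cellulase of the cap, had 1917 and 1387 CPM at 3 h and 2126 and 2089 CPM at 0 h, so both 3 h libraries were below both 0 h libraries. Markers of other tissues were also read. The 5 non-hair epidermis markers summed to 162 to 214 CPM at 3 h and 88.1 to 111 CPM at 0 h, so the groups did not overlap, and the pGL2 line of that tissue held 163 to 237 CPM at 0 h. The endodermis markers summed to 464 to 736 CPM at 3 h and 339 to 433 CPM at 0 h, and the stele markers to 177 to 219 CPM at 3 h and 146 to 157 CPM at 0 h, again without overlap and well below the 7210 and 1729 CPM that the pSCR and pSHR lines reached at the least at 0 h. The fitted change at 3 h was positive in 9 of 9 tested endodermis, 10 of 11 stele, 4 of 5 non-hair epidermis and 7 of 10 green tissue markers. It was positive in 3 of 11 root cap, 4 of 9 root hair and 0 of 2 cortex markers. No marker of these lists passed the edgeR test between 3 h and 0 h, which does not show that the levels were equal. At most 2 in a list had an unadjusted p under 0.05, and DESeq2 called the root hair factor RSL4 (adjusted p = 0.0284). No list had all of its markers at 0. The part of these other tissues in the results was not tested. In such fractions, fewer cells of a type and less mRNA per cell cannot be told apart. No untreated 3 h library is analysed here, so BL, elapsed time and handling cannot be told apart either.

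At 3 h, 94 genes were higher than at 0 h, 0.448% of the genes tested, and 98 were lower, 0.467% (edgeR quasi-likelihood test, Benjamini-Hochberg adjusted p under 0.05). The genes that rose included the wall genes XTH33 and EXPA17 and 3 genes for small auxin-responsive proteins. The sugar exporters SWEET11 and SWEET12 and the glutathione transferase GSTF6 also rose, though these calls depended on single libraries. So did the calls of EXPA17 and of AT5G03310 among the 3 genes for small auxin-responsive proteins. The lists that hold XTH33, EXPA17 and the sugar exporters had medians of -0.08, 0.01 and 0.08. The genes that fell included the brassinosteroid transcription factor BEH2, the signalling kinase BSK5, the homeodomain factor HAT1, sterol oxidases and the auxin-conjugating enzyme GH3.5. TCH4, of the same family as XTH33, fell too. The calls of BSK5, TCH4 and the sterol oxidase SMO2-1 likewise depended on single libraries. The median size of the change was 1.61 on the log2 scale among the higher genes and 1.33 among the lower genes, and 80 of each set changed by more than 1. In each of the 192 called genes, which were 0.915% of those tested, both 3 h libraries lay on the same side of both 0 h libraries. The test favours such genes, and how many of all genes tested separate in this way was not counted. The median over all genes tested was 0.014. An unadjusted p under 0.05 in edgeR was reached by 2673 of the 20995 genes tested. The counts of list members at that level, given below, are to be read against this share. Each group has 2 libraries, and the test borrows its estimate of the spread from all 24 groups. The fit without 0 h replicate 2 called 18 higher and 27 lower genes, and 12 higher and 14 lower genes passed in the fits without each of the 4 libraries in turn. Unless stated otherwise the changes are 3 h over 0 h, in log2 units with a standard error (SE). This SE was derived from the edgeR test, as the size of the change divided by the square root of its F statistic.

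**Figure D1:**
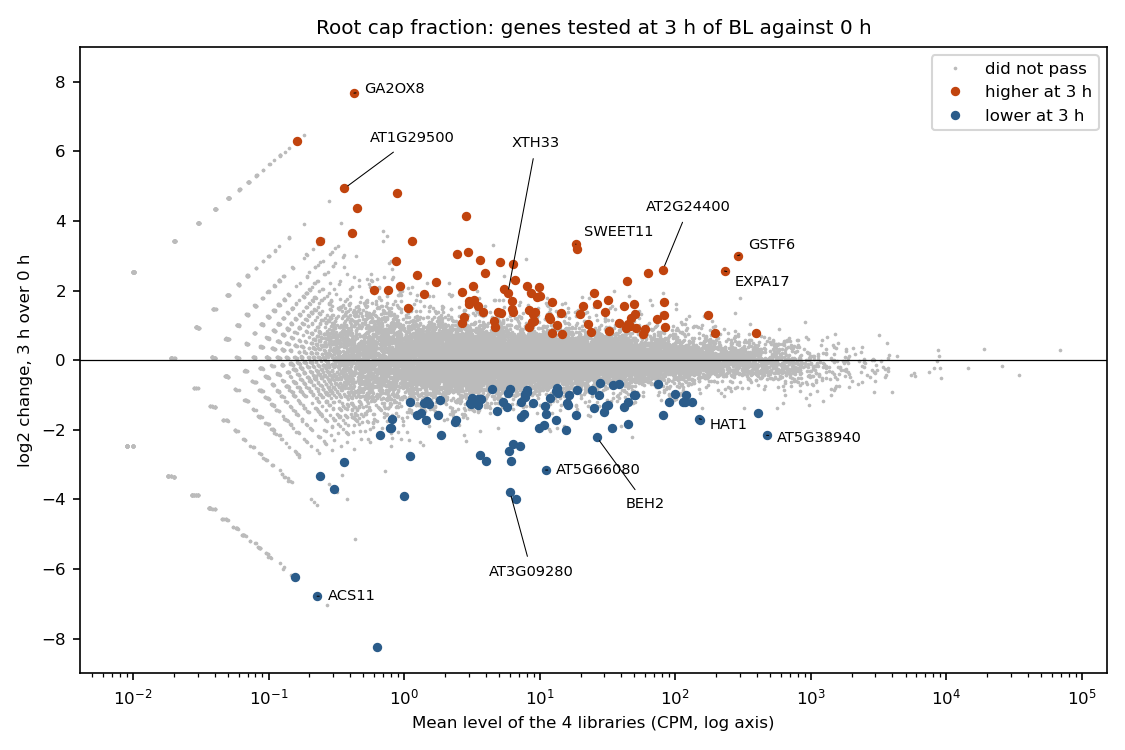
Log2 change at 3 h over 0 h (vertical axis) against the mean level of the 4 libraries in CPM (horizontal log axis) for the genes tested in the root cap fraction. Orange points are the 94 genes higher at 3 h, blue points the 98 genes lower at 3 h, and grey points did not pass. The changed genes span the range of levels, and the largest fitted changes belong to genes with almost no counts in 1 group.

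Within the brassinosteroid pathway, a transcription factor and a signalling kinase fell. BEH2 (AT4G36780, chromosome 4, 17332517 to 17334349, TAIR10), a homolog of BES1 and BZR1, stood at 9.79 and 8.92 CPM in the 3 h libraries, against 50.9 and 36.1 CPM in the 0 h libraries. Both 3 h libraries were far below both 0 h libraries, a change of -2.22 ± 0.328 (adjusted p = 0.000277). Of the 6 tested members of that family, BEH2 alone passed. BEH1 had 0.44 and 0.0407 CPM at 3 h and 0.977 and 1.77 CPM at 0 h and did not pass in edgeR (adjusted p = 0.0732), though it did in DESeq2 (adjusted p = 0.0182). BZR1 had 25.7 and 23.9 CPM at 3 h and 22.8 and 39.0 CPM at 0 h, and BES1 had 19.2 and 26.2 CPM at 3 h and 23.6 and 38.1 CPM at 0 h. The 3 h values of BZR1 lay between its 0 h values, and those of BES1 overlapped with them.

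The 10 tested genes of brassinosteroid synthesis had a median of -0.30, with 0 past the threshold in edgeR and 3 at an unadjusted p under 0.05. BR6OX2, which makes BL in the final step of the pathway, had 0.639 and 1.39 CPM at 3 h and 4.63 and 4.34 CPM at 0 h. The groups did not overlap, and the call depended on the tool, with an adjusted p of 0.127 in edgeR and 0.0203 in DESeq2. DWF4, the rate-limiting hydroxylase, had 27.7 and 36.6 CPM at 3 h and 54.4 and 76.0 CPM at 0 h (adjusted p = 0.37). BAS1, a cytochrome P450 that inactivates brassinosteroids, had 151 and 92.7 CPM at 3 h and 72.8 and 61.4 CPM at 0 h (adjusted p = 0.157), and neither edgeR nor DESeq2 called any of the 5 inactivation genes tested, of which 1 had an unadjusted p under 0.05. Neither tool called any of the 17 receptors and upstream signalling proteins, of which 1 had an unadjusted p under 0.05. BRI1 itself had 91.8 and 66.2 CPM at 3 h and 97.2 and 79.0 CPM at 0 h, with overlapping groups. BSK5, a kinase of the family that relays the signal from BRI1 and no member of that list, was singled out after its values were seen. It fell to 4.47 and 6.19 CPM at 3 h, against 9.95 and 15.3 CPM at 0 h (adjusted p = 0.0145), but not without 3 h replicate 1 (0.136) or 0 h replicate 2 (0.324).

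Because BEH2 and its family bind DNA, the 250 bases before the start of each gene were read from the RefSeq annotation of TAIR10.1. The motifs searched on both strands were CGTGTG and CGTGCG, the core of the brassinosteroid response element, and the E-box hexamers CACGTG and CATGTG. The letters CACGTGTG hold both CACGTG and CGTGTG. The motif CGTGTG stood in 5 of 94 promoters of higher genes (5.32%), in 16 of 97 promoters of lower genes (16.5%) and in 1148 of the 20868 promoters of all genes tested (5.5%). CACGTG stood in 7.45% of the higher, 11.3% of the lower and 7.24% of all promoters. CATGTG stood in 14.9% of the higher, 10.3% of the lower and 11.2% of all promoters, and CGTGCG in 2.13%, 3.09% and 1.73% of the same sets. These shares were looked at after the gene values were known and carry no test, and a match of letters is not a bound site. Of the 14 lower genes that passed without each library in turn, 6 had CGTGTG in this window, and the promoters of 5 of them are shown to let the motifs be compared. Capitals mark every match to the 4 motifs, on either strand. The sixth, SMO2-2, is not printed because the annotated start differs from the deposited one by 959 bases, whereas in the 5 shown the starts differ by 0 to 58 bases.
BEH2, chr4:17334356-17334605, minus strand: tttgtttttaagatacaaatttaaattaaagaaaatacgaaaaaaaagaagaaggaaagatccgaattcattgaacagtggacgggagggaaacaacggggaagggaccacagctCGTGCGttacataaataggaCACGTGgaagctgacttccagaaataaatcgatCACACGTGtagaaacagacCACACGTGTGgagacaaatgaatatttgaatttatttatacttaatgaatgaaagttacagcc
AT5G07810, chr5:2498543-2498792, minus strand: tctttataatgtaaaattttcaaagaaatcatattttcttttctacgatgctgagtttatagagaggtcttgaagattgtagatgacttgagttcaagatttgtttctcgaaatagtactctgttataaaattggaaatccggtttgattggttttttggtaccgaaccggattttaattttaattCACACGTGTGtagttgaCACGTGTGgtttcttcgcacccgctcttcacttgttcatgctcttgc
AT2G46850, chr2:19250816-19251065, plus strand: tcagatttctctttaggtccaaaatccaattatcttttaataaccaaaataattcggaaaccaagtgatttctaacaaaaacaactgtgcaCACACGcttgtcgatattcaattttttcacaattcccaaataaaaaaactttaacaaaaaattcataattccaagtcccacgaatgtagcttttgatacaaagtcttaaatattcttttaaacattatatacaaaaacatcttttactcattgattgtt
AT3G09280, chr3:2851273-2851522, minus strand: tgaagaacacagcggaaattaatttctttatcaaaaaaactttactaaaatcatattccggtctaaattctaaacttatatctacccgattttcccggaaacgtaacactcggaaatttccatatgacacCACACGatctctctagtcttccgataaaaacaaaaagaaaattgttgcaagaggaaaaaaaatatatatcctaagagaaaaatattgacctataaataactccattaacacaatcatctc
AT5G66080, chr5:26425449-26425698, minus strand: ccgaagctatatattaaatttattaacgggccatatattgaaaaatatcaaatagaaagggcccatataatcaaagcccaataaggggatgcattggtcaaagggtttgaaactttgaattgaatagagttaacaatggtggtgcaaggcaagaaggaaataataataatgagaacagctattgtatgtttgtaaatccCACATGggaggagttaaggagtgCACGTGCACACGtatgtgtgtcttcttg
BEH2 held 3 matches to CGTGTG, 3 to CACGTG and 1 to CGTGCG, and AT5G07810 held 3 to CGTGTG and 2 to CACGTG. In both, a palindromic stretch reads CGTGTG on each strand around 1 CACGTG. AT2G46850 and AT3G09280 held a single CGTGTG, and AT5G66080 held a single CGTGTG beside 1 match to each E-box hexamer.

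The other 4 genes with printed promoters were among the lower genes with the smallest p-values. AT3G09280 (chromosome 3, 2850920 to 2851258), which encodes an uncharacterized protein, had the smallest of all. It stood at 0.599 and 1.02 CPM in the 3 h libraries, against 9.84 and 12.7 CPM in the 0 h libraries, a change of -3.79 ± 0.453 (adjusted p = 4.76e-05). AT5G66080 (chromosome 5, 26423419 to 26425406), a protein phosphatase 2C, stood at 1.08 and 3.38 CPM at 3 h, against 21.7 and 18.1 CPM at 0 h (-3.16 ± 0.462, adjusted p = 0.000236). In both genes the 3 h libraries held a small part of the 0 h level. AT2G46850 (chromosome 2, 19251066 to 19253368), a protein kinase, had 1.64 and 1.71 CPM at 3 h and 10.7 and 9.84 CPM at 0 h (-2.61 ± 0.358, adjusted p = 0.000191). AT5G07810 (chromosome 5, 2491283 to 2498484), a SNF2-type helicase with an HNH nuclease domain, had 0.639 and 0.733 CPM at 3 h and 2.75 and 3.33 CPM at 0 h (-2.14 ± 0.3, adjusted p = 0.0002).

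**Figure D2:**
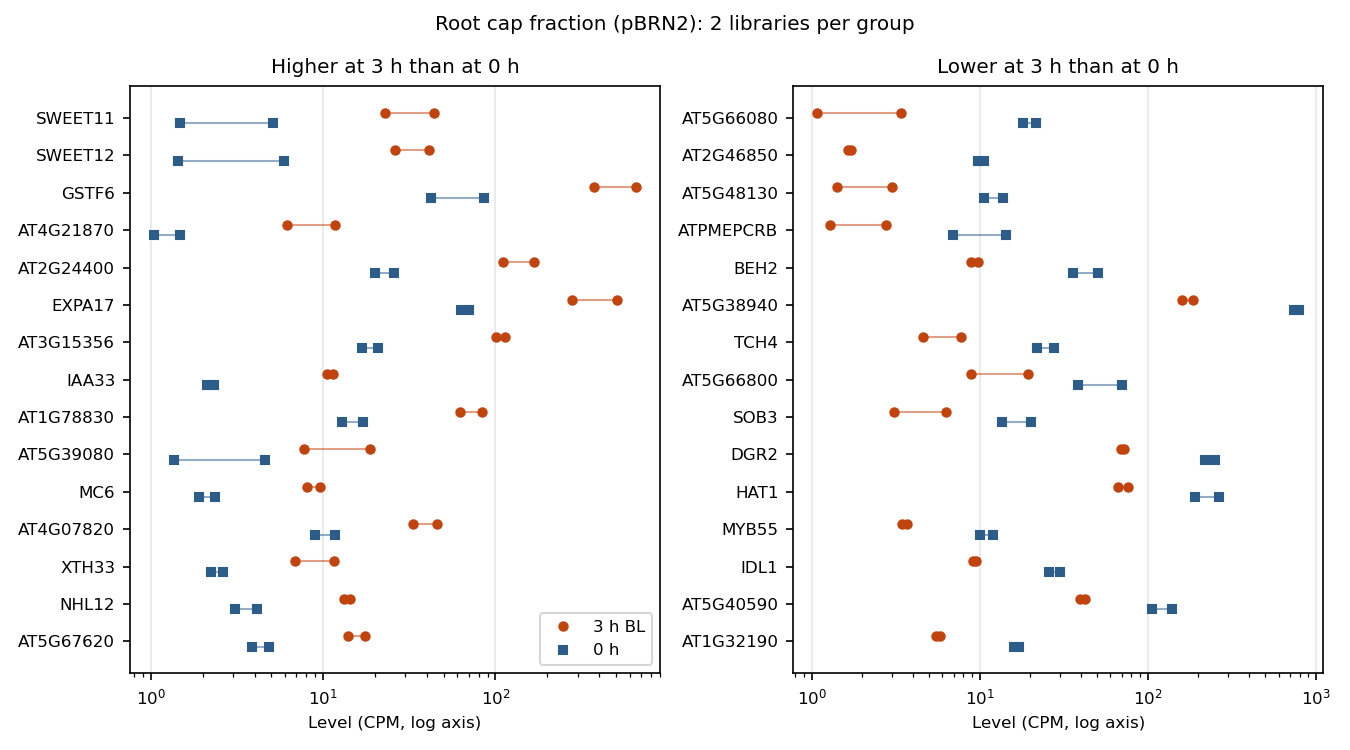
Levels in CPM (log axis) of the 15 higher genes (left) and 15 lower genes (right) with the largest changes among genes averaging 8 CPM or more in their higher group and having a symbol or described product. Orange circles are the 2 libraries at 3 h and blue squares the 2 libraries at 0 h, joined by a line. Groups that do not overlap were a condition of the choice. BEH2 sits at 9.79 and 8.92 CPM at 3 h, left of its 0 h values of 50.9 and 36.1 CPM.

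Growth-related transcription factors gave 1 change in 20 tested. HAT1 (AT4G17460, chromosome 4, 9739663 to 9741146), a class II homeodomain-leucine zipper factor that works with BES1, stood at 76.2 and 66.4 CPM at 3 h, against 266 and 192 CPM at 0 h. Neither 3 h library came near the 0 h libraries, and the change was -1.69 ± 0.263 (adjusted p = 0.000641). Its relatives HAT2 (56.1 and 65.6 CPM at 3 h, 117 and 121 CPM at 0 h, adjusted p = 0.192) and HB-2 (1.08 and 3.34 CPM at 3 h, 6.04 and 6.71 CPM at 0 h, adjusted p = 0.0891) also had both 3 h libraries below both 0 h libraries but did not pass in edgeR. HB-2 passed in DESeq2 (adjusted p = 0.0301). Of the 11 tested bHLH factors of the BEE, PRE and related groups, which promote cell elongation, neither edgeR nor DESeq2 called any, and 5 had an unadjusted p under 0.05. They did not share a direction: PRE6 had 7.07 and 7.45 CPM at 3 h and 3.65 and 3.29 CPM at 0 h, whereas PRE3 had 16.3 and 33.4 CPM at 3 h and 46.9 and 58.5 CPM at 0 h.

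Cell wall enzymes changed in both directions. XTH33 (AT1G10550, chromosome 1, 3479153 to 3480988) and TCH4 (AT5G57560, chromosome 5, 23307130 to 23308282) both encode xyloglucan endotransglucosylase/hydrolases, which cut and rejoin the tethers between cellulose fibrils. XTH33 stood at 6.91 and 11.5 CPM at 3 h, against 2.24 and 2.61 CPM at 0 h (1.93 ± 0.275, adjusted p = 0.0002). TCH4 stood at 7.71 and 4.6 CPM at 3 h, against 27.8 and 22.1 CPM at 0 h (-2.02 ± 0.414, adjusted p = 0.0104). The remaining 25 tested members of the family did not pass, and the median of all 27 was -0.08, between -0.24 and 0.18 without each library. EXPA17 (AT4G01630, chromosome 4, 700653 to 701527), an expansin that loosens walls without cutting them, rose to 510 and 280 CPM at 3 h, against 70.4 and 63.3 CPM at 0 h (2.56 ± 0.475, adjusted p = 0.00498). It was the 1 expansin of 24 that passed, and the median of the family was 0.01, between -0.30 and 0.24 without each library. Without 1 library, XTH33 passed in all 4 fits. EXPA17 did not pass without 3 h replicate 1 (adjusted p = 0.0501) or 0 h replicate 2 (0.116), nor TCH4 without 3 h replicate 2 (0.104) or 0 h replicate 1 (0.0601).

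Pectin, the other main wall polymer, was also represented. These families were counted after the values were seen. Of 54 tested pectin lyase-like proteins 3 rose and 0 fell, with a family median of 0.14. AT2G43870 (chromosome 2, 18166615 to 18168264) had 64.4 and 59.6 CPM at 3 h and 19.3 and 23.1 CPM at 0 h (1.55 ± 0.244, adjusted p = 0.000651), and the libraries of each group were tightly placed. AT3G59850 had 157 and 80.4 CPM at 3 h and 57.7 and 38.0 CPM at 0 h (adjusted p = 0.02). AT2G43890 had 4.91 and 5.70 CPM at 3 h and 0.579 and 0.643 CPM at 0 h (adjusted p = 0.0428). The invertase and pectin methylesterase inhibitor superfamily had 2 higher and 2 lower genes among 50 tested. AT5G62350 had 114 and 89.5 CPM at 3 h and 49.6 and 39.8 CPM at 0 h, and ATPMEPCRB had 1.28 and 2.77 CPM at 3 h and 6.94 and 14.4 CPM at 0 h. AT2G43870 passed without each library in turn. AT2G43890 passed in none of these 4 fits (adjusted p up to 0.301), AT3G59850 failed without 3 h replicate 1 (0.282) or 0 h replicate 2 (0.333), AT5G62350 without the same 2 libraries (0.0762 and 0.196), and ATPMEPCRB passed only without 0 h replicate 1 (up to 0.396 otherwise).

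Genes of auxin response moved in part. AT2G24400 (chromosome 2, 10377791 to 10378586) encodes a SAUR-like protein, one of the small auxin-responsive proteins that promote acid growth. It stood at 168 and 111 CPM at 3 h, against 25.9 and 20 CPM at 0 h. The 3 h libraries were several times above both 0 h libraries, with a change of 2.60 ± 0.332 (adjusted p = 9.86e-05), the smallest p among the higher genes. Among 53 tested genes whose product is described as SAUR-like, counted after the values were seen, 3 rose and 0 fell. The other 2 were AT5G03310, with 2.16 and 2.04 CPM at 3 h and 0.217 and 0.161 CPM at 0 h (3.44 ± 0.581, adjusted p = 0.00157), and AT1G29500, with 13 and 22 reads at 3 h and 1 and 0 reads at 0 h (adjusted p = 0.000803). Of the 11 tested genes with a SAUR symbol neither edgeR nor DESeq2 called any, and 3 had an unadjusted p under 0.05. AT5G03310 did not pass without 0 h replicate 2 (adjusted p = 0.0719), and the other 2 passed without each library.

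Aux/IAA proteins repress auxin-responsive genes and are themselves induced by auxin, and 2 of 28 rose with none lower, at a family median of 0.28. IAA33 had 10.6 and 11.4 CPM at 3 h and 2.31 and 2.13 CPM at 0 h (2.30 ± 0.409, adjusted p = 0.00269). IAA13 had 26.4 and 35.3 CPM at 3 h and 16.2 and 13.5 CPM at 0 h (1.05 ± 0.208, adjusted p = 0.00749). A further 9 members had an unadjusted p under 0.05, and of these DESeq2 called IAA5 (adjusted p = 0.0203) and IAA28 (0.0127). The GH3 enzymes, which join auxin to amino acids, split. GH3.5 (AT4G27260, chromosome 4, 13653609 to 13656204) fell to 24.0 and 24.0 CPM at 3 h, against 61.0 and 59.9 CPM at 0 h (-1.33 ± 0.236, adjusted p = 0.00269), with almost no spread inside either group. GH3.2 rose to 9.39 and 17.3 CPM at 3 h, against 4.27 and 5.94 CPM at 0 h (1.39 ± 0.336, adjusted p = 0.0385). WAG2, a kinase that acts on PIN auxin exporters, was the 1 of 13 auxin transport genes that passed, with 60.4 and 84.9 CPM at 3 h and 20.5 and 36.8 CPM at 0 h (1.34 ± 0.332, adjusted p = 0.0428). Of the 9 tested genes of auxin synthesis neither tool called any. Their median was 0.65, between 0.27 and 0.71 without each library, and 4 had an unadjusted p under 0.05. TAA1, the aminotransferase of the main route, had 87.6 and 73.9 CPM at 3 h and 49.2 and 56.7 CPM at 0 h (adjusted p = 0.175), and YUC3, a flavin monooxygenase of the next step, had 144 and 105 CPM at 3 h and 77.4 and 71.3 CPM at 0 h (adjusted p = 0.207). GH3.5 passed without each library. IAA33 failed without 0 h replicate 2 (0.0813), IAA13 without 3 h replicate 2 (0.0843) or 0 h replicate 2 (0.181), and GH3.2 and WAG2 passed only without 3 h replicate 1 (otherwise up to 0.259 and 0.253).

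**Figure D3:**
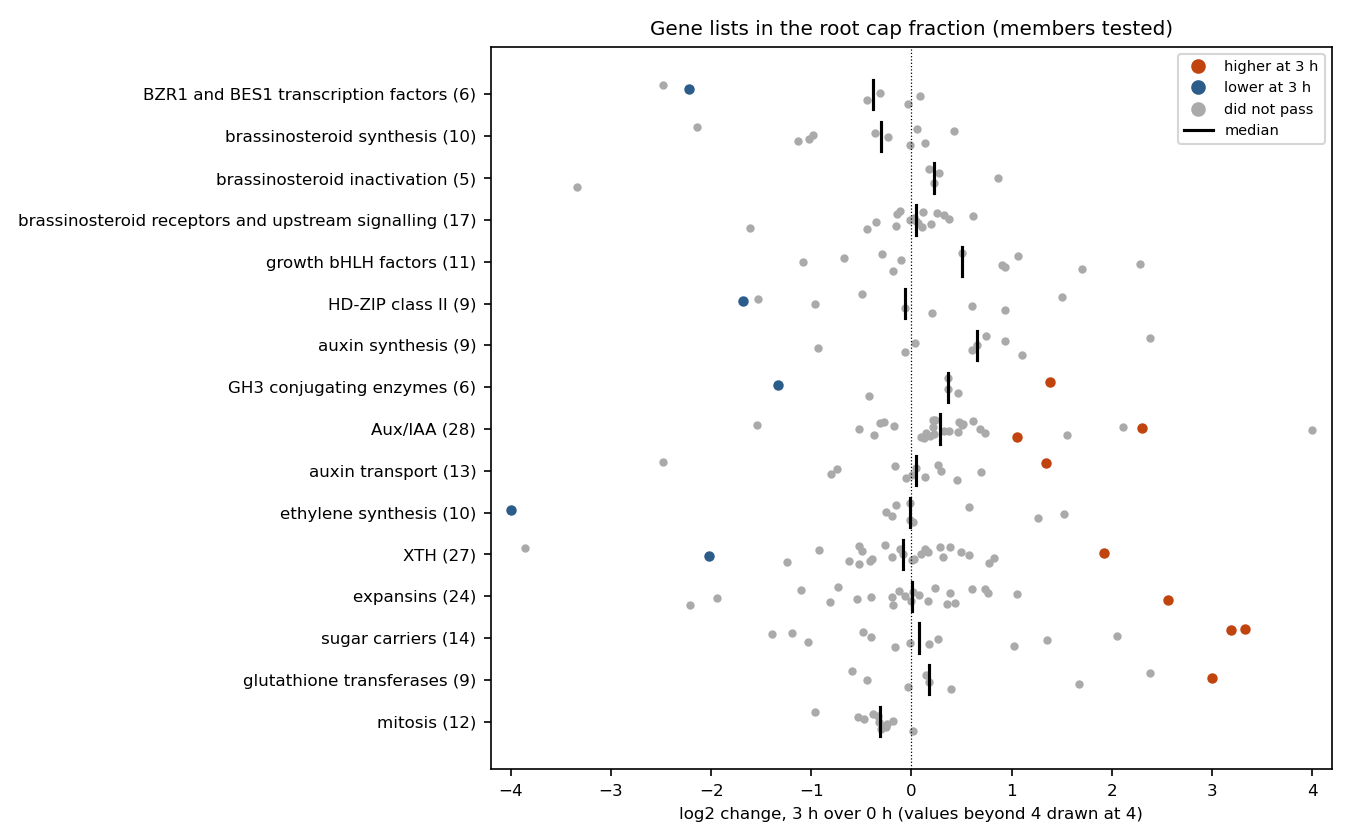
Log2 change at 3 h over 0 h of each tested member of 16 gene lists in the root cap fraction, with the number tested in parentheses and the list median as a black bar. Orange points rose, blue points fell and grey points did not pass, and values beyond 4 are drawn at 4. Most lists straddle 0 with 1 or 2 members past the threshold, and the auxin synthesis list has a median of 0.65 with none past it.

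Some genes with 0 reads in 1 group also passed. GA2OX8, an oxidase that inactivates gibberellin precursors, had 8 and 34 reads in the 3 h libraries and 0 reads in both 0 h libraries, at least 14.8-fold higher against a floor of 3 reads over the 0 h group (adjusted p = 0.000655). ACS11, which makes the ethylene precursor, had 0 reads in both 3 h libraries and 13 and 11 reads in the 0 h libraries, at least 7.55-fold lower (adjusted p = 0.0354). It was the 1 of 10 tested genes of ethylene synthesis that passed in edgeR. LBD19, a LOB domain transcription factor, had 0 reads in both 3 h libraries and 12 and 52 reads in the 0 h libraries, at least 20.1-fold lower (adjusted p = 0.00591). The floors are on the CPM scale and cover counting error only. GA2OX8 passed without each library, LBD19 only without 0 h replicate 1 (otherwise 0.0501 to 0.136), and ACS11 in none of these fits (0.0688 to 0.126).

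Among genes with a mean of 8 CPM or more, the sugar exporters SWEET11 and SWEET12 rose the most. SWEET11 stood at 44.2 and 23.0 CPM at 3 h, against 5.13 and 1.49 CPM at 0 h (3.33 ± 0.831, adjusted p = 0.0478). SWEET12 stood at 41.2 and 26.2 CPM at 3 h, against 5.89 and 1.45 CPM at 0 h (3.19 ± 0.779, adjusted p = 0.0428). These are close paralogs, and how the authors' counting treated reads that could map to both was not checked. In both genes the libraries of a group differed by 1.5-fold or more, and neither passed when any 1 library was left out (adjusted p 0.0505 to 0.405 for SWEET11 and 0.051 to 0.402 for SWEET12). The other 12 of 14 tested sugar carriers did not pass in edgeR, and the list median was 0.08. STP4, a monosaccharide importer, had 502 and 296 CPM at 3 h and 195 and 117 CPM at 0 h (adjusted p = 0.0778, and 0.0355 in DESeq2). Among 12 genes induced by sugar starvation the median was 0.60, between 0.33 and 0.97 without each library, with 0 past the threshold in edgeR and 3 at an unadjusted p under 0.05. ERD5, a proline dehydrogenase, had 280 and 235 CPM at 3 h and 121 and 115 CPM at 0 h (adjusted p = 0.0781, and 0.0271 in DESeq2).

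A pair of starch breakdown genes fell, and these were singled out after their values were seen. RCP1, the maltose exporter of the plastid, had 18.9 and 12.5 CPM at 3 h and 45.6 and 41.9 CPM at 0 h (-1.48 ± 0.277, adjusted p = 0.00498). PHS2, the cytosolic glucan phosphorylase, had 19.2 and 17.2 CPM at 3 h and 37.6 and 34.9 CPM at 0 h (-0.99 ± 0.223, adjusted p = 0.0229). RCP1 did not pass without 3 h replicate 2 (0.077), and PHS2 passed in none of the 4 fits without a library (0.062 to 0.107).

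Of 9 listed glutathione transferases 1 rose and 0 fell, at a median of 0.18, and among 52 tested genes so described by product, counted after the values were seen, 1 rose and 1 fell. GSTF6 (AT1G02930, chromosome 1, 661177 to 662427), a glutathione transferase of defence and detoxification, had 656 and 371 CPM at 3 h and 85.5 and 42.4 CPM at 0 h (3.00 ± 0.723, adjusted p = 0.0401). Its near-identical neighbour GSTF7 had 940 and 500 CPM at 3 h and 172 and 104 CPM at 0 h (adjusted p = 0.0618 in edgeR and 0.0057 in DESeq2). How reads that could map to both were treated was not checked, so the separate levels of the pair are uncertain. GSTF6 passed only without 3 h replicate 2, with an adjusted p of 0.0839 to 0.383 in the fits without the other libraries. ATGSTF13, no member of the list, fell to 1.12 and 0.774 CPM at 3 h, against 4.41 and 8.27 CPM at 0 h (-2.74 ± 0.584, adjusted p = 0.0145), and passed only without 0 h replicate 1 (otherwise 0.0596 to 0.211).

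Lectins are sugar-binding proteins, and of 116 tested genes with a lectin product 3 rose and 0 fell, at a median of 0.09, counted after the values were seen. AT3G15356 had 113 and 101 CPM at 3 h and 16.9 and 20.8 CPM at 0 h (2.50 ± 0.492, adjusted p = 0.00756), and AT1G78830 had 83.2 and 62.1 CPM at 3 h and 17.0 and 12.9 CPM at 0 h (2.28 ± 0.433, adjusted p = 0.00625). In both genes every 3 h library was more than 3 times every 0 h library. AT3G45410, a receptor kinase of the lectin type, had 12.4 and 12.5 CPM at 3 h and 6.11 and 5.18 CPM at 0 h (1.14 ± 0.267, adjusted p = 0.0322) and passed in none of the fits without a library (0.0732 to 0.309). AT3G15356 did not pass without 0 h replicate 1 (0.079) or 0 h replicate 2 (0.101), and AT1G78830 not without 0 h replicate 2 (0.151). MC6, a metacaspase of the protease family linked to cell death, had 8.03 and 9.65 CPM at 3 h and 1.92 and 2.37 CPM at 0 h (2.04 ± 0.423, adjusted p = 0.0108), and passed only without 3 h replicate 1 (otherwise 0.0566 to 0.107). AT5G38940, a germin-like cupin, moved the other way at a high level, with 186 and 160 CPM at 3 h and 744 and 798 CPM at 0 h (-2.16 ± 0.438, adjusted p = 0.00964), and passed only without 0 h replicate 1 (otherwise 0.0574 to 0.0813). The 9 touch and wounding genes had a median of -0.36 with none called by edgeR or DESeq2, and 3 had an unadjusted p under 0.05. Outside that list, TCH4 above, whose name comes from its induction by touch, was called lower, and so was LOX4, a lipoxygenase of the jasmonate route named after its values were seen. LOX4 had 0.32 and 0.244 CPM at 3 h and 1.74 and 2.09 CPM at 0 h (-2.74 ± 0.614, adjusted p = 0.0229) and passed only without 0 h replicate 1 (otherwise 0.0789 to 0.149).

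Sterols are the raw material of brassinosteroids, and 3 enzymes of sterol synthesis fell out of 21 tested, a list made after the values were seen. SMO2-2 (AT2G29390, chromosome 2, 12610543 to 12611978) and SMO2-1 are 4-alpha-methyl oxidases of the route to campesterol and sitosterol. SMO2-2 had 31.4 and 35.9 CPM at 3 h and 69.7 and 64.9 CPM at 0 h (-1.0 ± 0.179, adjusted p = 0.00305). SMO2-1 had 59.9 and 54.1 CPM at 3 h and 97.1 and 86.5 CPM at 0 h (-0.69 ± 0.148, adjusted p = 0.0162). XF1, a squalene epoxidase at the entry to the route, had 22.9 and 20.2 CPM at 3 h and 37.2 and 31.0 CPM at 0 h (-0.66 ± 0.156, adjusted p = 0.0328). The other 18 did not pass, the list median was 0.01, and DWF1, a later step shared with brassinosteroids, had 598 and 588 CPM at 3 h and 735 and 663 CPM at 0 h. SMO2-2 passed without each library, SMO2-1 only without 3 h replicate 1 (otherwise 0.0687 to 0.0996), and XF1 in none of these fits (0.0567 to 0.177).

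Among genes of transport and metal storage, RABA5a and UCP5 were named by rule and the rest after their values were seen. RABA5a (AT5G47520, chromosome 5, 19277361 to 19279736), a GTPase of secretory traffic, had 35.5 and 30.5 CPM at 3 h and 69.2 and 63.0 CPM at 0 h (-1.0 ± 0.134, adjusted p = 0.000166). UCP5, a carrier of the inner mitochondrial membrane, had 78.9 and 82.1 CPM at 3 h and 181 and 187 CPM at 0 h (-1.19 ± 0.208, adjusted p = 0.0024). Both passed without each library. Of 42 tested RAB GTPases 2 fell and 0 rose, at a median of 0.03, the other being RABC2b (1.6 and 2.04 CPM at 3 h, 4.74 and 3.81 CPM at 0 h, adjusted p = 0.0137), which failed without 3 h replicate 1 (0.113) or 0 h replicate 1 (0.0909). MTP11, a manganese transporter of internal membranes, had 29.96 and 24.2 CPM at 3 h and 67.9 and 56.6 CPM at 0 h (adjusted p = 0.00682), and NRAMP1, which imports manganese and iron, had 292 and 206 CPM at 3 h and 162 and 126 CPM at 0 h (adjusted p = 0.0384). FER3, an iron-storing ferritin, had 42.2 and 68.3 CPM at 3 h and 102 and 150 CPM at 0 h (adjusted p = 0.0449). MTP11 did not pass without 3 h replicate 2 (0.0759) or 0 h replicate 1 (0.0572), and NRAMP1 and FER3 not without 3 h replicate 1 (0.293 and 0.273) or 0 h replicate 2 (0.399 and 0.408).

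Peptide genes were not a list of their own, and 3 called ones are given, of which CLE16 and PSK2 were named after their values were seen. IDL1, related to the abscission peptide IDA, had 9.15 and 9.45 CPM at 3 h and 25.7 and 30 CPM at 0 h (-1.58 ± 0.294, adjusted p = 0.00477). CLE16, of the CLAVATA3-related peptides, had 48.6 and 39.5 CPM at 3 h and 17.6 and 16.5 CPM at 0 h (1.37 ± 0.265, adjusted p = 0.00679). IDL1 did not pass without 0 h replicate 2 (0.0749), nor CLE16 without that library (0.12) or 3 h replicate 1 (0.0513). PSK2, a phytosulfokine precursor, had 11.4 and 7.74 CPM at 3 h and 3.83 and 1.97 CPM at 0 h (1.71 ± 0.432, adjusted p = 0.0469) and passed in none of the 4 fits without a library (0.0505 to 0.431). Of 12 mitosis genes, 0 passed in edgeR and 1 had an unadjusted p under 0.05, at a median of -0.31, and DESeq2 called the cyclin CYCA1;1 (adjusted p = 0.0268). Outside that list, CYC3B, a cyclin of the mitotic type named after its values were seen, was called lower, with 0.439 and 0.814 CPM at 3 h and 1.92 and 1.81 CPM at 0 h (-1.57 ± 0.355, adjusted p = 0.0238), and passed only without 3 h replicate 2 (otherwise 0.0761 to 0.188). Of 11 circadian clock genes and 9 type-A response regulators of cytokinin signalling none passed in edgeR, with medians of 0.34 and 0.03 and 0 and 1 members at an unadjusted p under 0.05. Of the 6 EXORDIUM family genes, which BL is known to raise in shoots, neither edgeR nor DESeq2 called any, at a median of -0.42 and with 1 at an unadjusted p under 0.05.

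The same test in the other Col-0 lines, which share no library with these 4, placed the root cap changes beside other tissues. The 35S line reads the whole root, root cap cells among them. All lines were tested in 1 fit with a shared spread, so the calls of a gene in several lines are not independent. In pGL2 (non-hair epidermis) 104 genes were higher at 3 h than at 0 h (0.495% of those tested) and 102 lower (0.486%), in 35S (whole root) 30 (0.143%) and 35 (0.167%), in pSCR (endodermis) 3 (0.0143%) and 6 (0.0286%), and in pSHR (stele) 2 (0.00953%) and 2 (0.00953%). Of the 94 higher root cap genes 18 were also higher in pGL2, 19.1% of the root cap list and 17.3% of the pGL2 list. Of the 98 lower genes 26 were also lower in pGL2, 26.5% of the root cap list and 25.5% of the pGL2 list. With 35S, 15 higher genes were shared (16.0% of the root cap list and 50.0% of the 35S list) and 17 lower genes (17.3% of the root cap list and 48.6% of the 35S list). No gene was called in opposite directions in the root cap and another of these lines. Both genes higher in pSHR, XTH33 and AT2G42060, were also higher in the root cap, and both lower in pSHR, AT2G46850 and AT4G33800, were also lower there. The root cap genes had medians of 0.64 (higher) and -0.61 (lower) in pGL2, 0.42 and -0.35 in pSCR, and 0.42 and -0.21 in pSHR.

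XTH33 passed in 4 of these 5 lines, with changes of 1.93 in pBRN2, 1.54 in 35S, 1.98 in pGL2 and 2.40 in pSHR, and missed the threshold in pSCR (1.45, adjusted p = 0.0839). In pGL2 it stood at 103 ± 0.169 CPM at 3 h, against 26.1 ± 3.63 CPM at 0 h (SD, n = 2 each). In pSHR, where it was barely detected, it stood at 0.939 ± 0.123 CPM at 3 h, against 0.175 ± 0.0134 CPM at 0 h. AT2G46850 passed in all 5. It changed by -2.61 in pBRN2, -2.76 in 35S, -1.79 in pGL2, -1.89 in pSCR and -3.73 in pSHR. BEH2 changed by -2.22 in pBRN2, -1.61 in 35S and -2.87 in pGL2, where it passed, and stood at 20.7 ± 2.54 CPM at 3 h and 33.8 ± 4.51 CPM at 0 h in pSCR (adjusted p = 0.943) and at 21 ± 0.00156 CPM at 3 h and 28.2 ± 1.01 CPM at 0 h in pSHR (adjusted p = 1). GH3.5, which fell in pBRN2, stood at 37.6 ± 4.78 CPM at 3 h and 32.9 ± 5.21 CPM at 0 h in pGL2 and at 32.9 ± 5.30 CPM at 3 h and 29.0 ± 5.36 CPM at 0 h in pSHR, with overlapping ranges. GSTF6, high in pGL2 as well, stood there at 608 ± 55.7 CPM at 3 h and 122 ± 7.55 CPM at 0 h (adjusted p = 0.147), beside the epidermis markers that differed between the root cap groups.

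**Figure D4:**
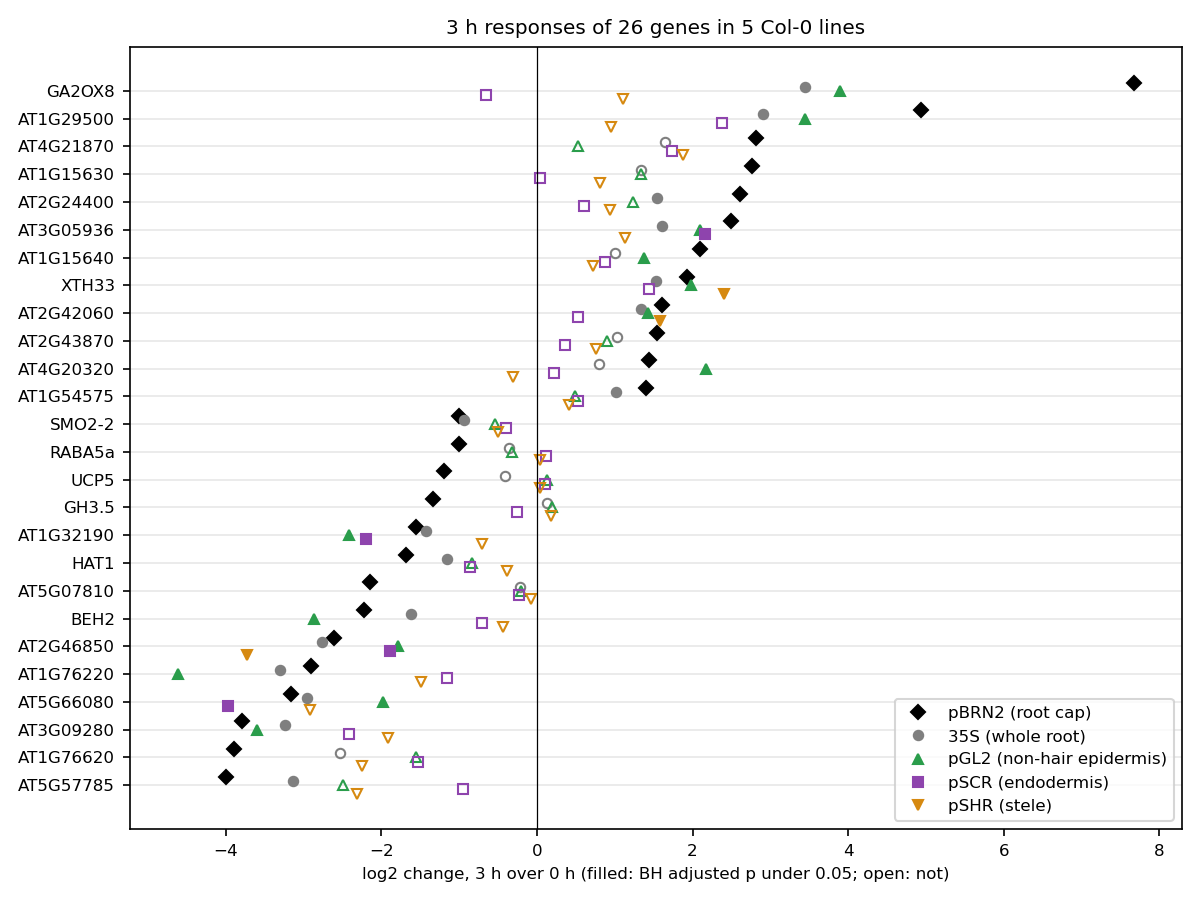
Log2 change at 3 h over 0 h in the root cap line (black diamonds) and 4 other Col-0 lines for the 12 higher and 14 lower root cap genes that passed without each library in turn. Filled symbols passed in that line and open symbols did not, and fitted changes of genes with 0 reads in a group, such as GA2OX8, are no measured fold. XTH33 lies between 1.45 and 2.40 in all 5 lines, and AT5G07810 lies at -2.14 in pBRN2 and near 0 in the other lines.

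Whether the root cap response differs was tested as a contrast of changes, the change in pBRN2 minus the mean change in pGL2, pSCR and pSHR. It called 0 genes with a higher response in edgeR (1 in DESeq2) and 2 with a lower one, 0.00953% of those tested (8 in DESeq2). At an unadjusted p under 0.05 in edgeR, 560 had a higher and 613 a lower response, of the 20995 genes tested. RABA5a differed by -0.95 ± 0.154 (adjusted p = 0.0181). Its change was -1.0 in pBRN2, against -0.32 in pGL2, 0.12 in pSCR and 0.04 in pSHR. AT5G07810 differed by -1.97 ± 0.334 (adjusted p = 0.0187), with -2.14 in pBRN2, against -0.20 in pGL2, -0.23 in pSCR and -0.08 in pSHR. In pGL2 it stood at 2.48 ± 0.173 CPM at 3 h and 2.86 ± 0.645 CPM at 0 h, above the 3 h root cap libraries. The next genes were UCP5 (-1.29 ± 0.243, adjusted p = 0.0635), TCH4 (-2.52 ± 0.481, adjusted p = 0.0635) and GH3.5 (-1.38 ± 0.271, adjusted p = 0.0724), all with a lower response, and EMB1030 with a higher one (2.21 ± 0.438, adjusted p = 0.0724), and all 4 missed the threshold. EMB1030, an alanyl-tRNA synthetase, had 1.28 and 1.18 CPM at 3 h and 0.47 and 0.121 CPM at 0 h in the root cap. Both calls depended on single libraries. RABA5a did not pass without 3 h replicate 2 (0.114), 0 h replicate 1 (0.21) or 0 h replicate 2 (0.072), and AT5G07810 passed only without 0 h replicate 1 (otherwise 0.102 to 0.253). In the fit of the 30 Col-0 libraries alone neither passed (0.182 for RABA5a and 0.15 for AT5G07810), nor in the fit of the compared groups alone (0.44 and 0.268), and RABA5a did not pass with no filter on low counts (0.0732).

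At 8 h the early genes took different courses. Between 8 h and 3 h in the root cap fraction 245 genes were called (1.17% of those tested), of which 115 were higher at 8 h (0.548%) and 130 lower (0.619%). These tests use the same 3 h libraries as the tests above, so only the values of single genes are set side by side. GSTF6 stood at 85.5 and 42.4 CPM at 0 h, 656 and 371 CPM at 3 h, and 15.4 and 8.58 CPM at 8 h, so both 8 h libraries were below both 0 h libraries. The change from 3 h was -5.43 ± 0.813 (adjusted p = 0.000562). AT1G78830 had 17.0 and 12.9 CPM at 0 h, 83.2 and 62.1 CPM at 3 h, and 11.7 and 7.44 CPM at 8 h (8 h over 3 h: -2.93 ± 0.445, adjusted p = 0.000528). AT2G24400 had 25.9 and 20 CPM at 0 h, 168 and 111 CPM at 3 h, and 69.1 and 26.6 CPM at 8 h (-1.55 ± 0.319, adjusted p = 0.0123), with 8 h libraries that differed from each other. XTH33 had 2.24 and 2.61 CPM at 0 h, 6.91 and 11.5 CPM at 3 h, and 4.06 and 4.24 CPM at 8 h (-1.15 ± 0.262, adjusted p = 0.0233).

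Other early genes stayed near their 3 h level. AT2G43870, the pectin lyase-like gene, had 59.3 and 59.4 CPM at 8 h, beside 64.4 and 59.6 CPM at 3 h. BEH2 had 11.2 and 16.5 CPM at 8 h and 9.79 and 8.92 CPM at 3 h. Its 8 h level was below 0 h (8 h over 0 h: -1.65), but the same 0 h libraries had served to pick the gene. GH3.5 had 25.7 and 24.8 CPM at 8 h and 24.0 and 24.0 CPM at 3 h, RABA5a 35.3 and 27.5 CPM at 8 h and 35.5 and 30.5 CPM at 3 h, and AT5G66080 2.23 and 2.40 CPM at 8 h and 1.08 and 3.38 CPM at 3 h. None of these 5 passed between 8 h and 3 h, which does not show that the levels were equal. AT5G07810 returned, with 2.75 and 3.33 CPM at 0 h, 0.639 and 0.733 CPM at 3 h, and 2.35 and 2.42 CPM at 8 h (8 h over 3 h: 1.79 ± 0.3, adjusted p = 0.00159). GSTF6, AT1G78830 and AT5G07810 passed without each 3 h or 8 h library in turn. AT2G24400 did not pass without 8 h replicate 2 (0.234) or 3 h replicate 1 (0.0877), nor XTH33 without 8 h replicate 2 (0.154) or 3 h replicate 2 (0.195), and the count of called genes ran from 57 without 8 h replicate 2 to 1272 without 8 h replicate 1.

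**Figure D5:**
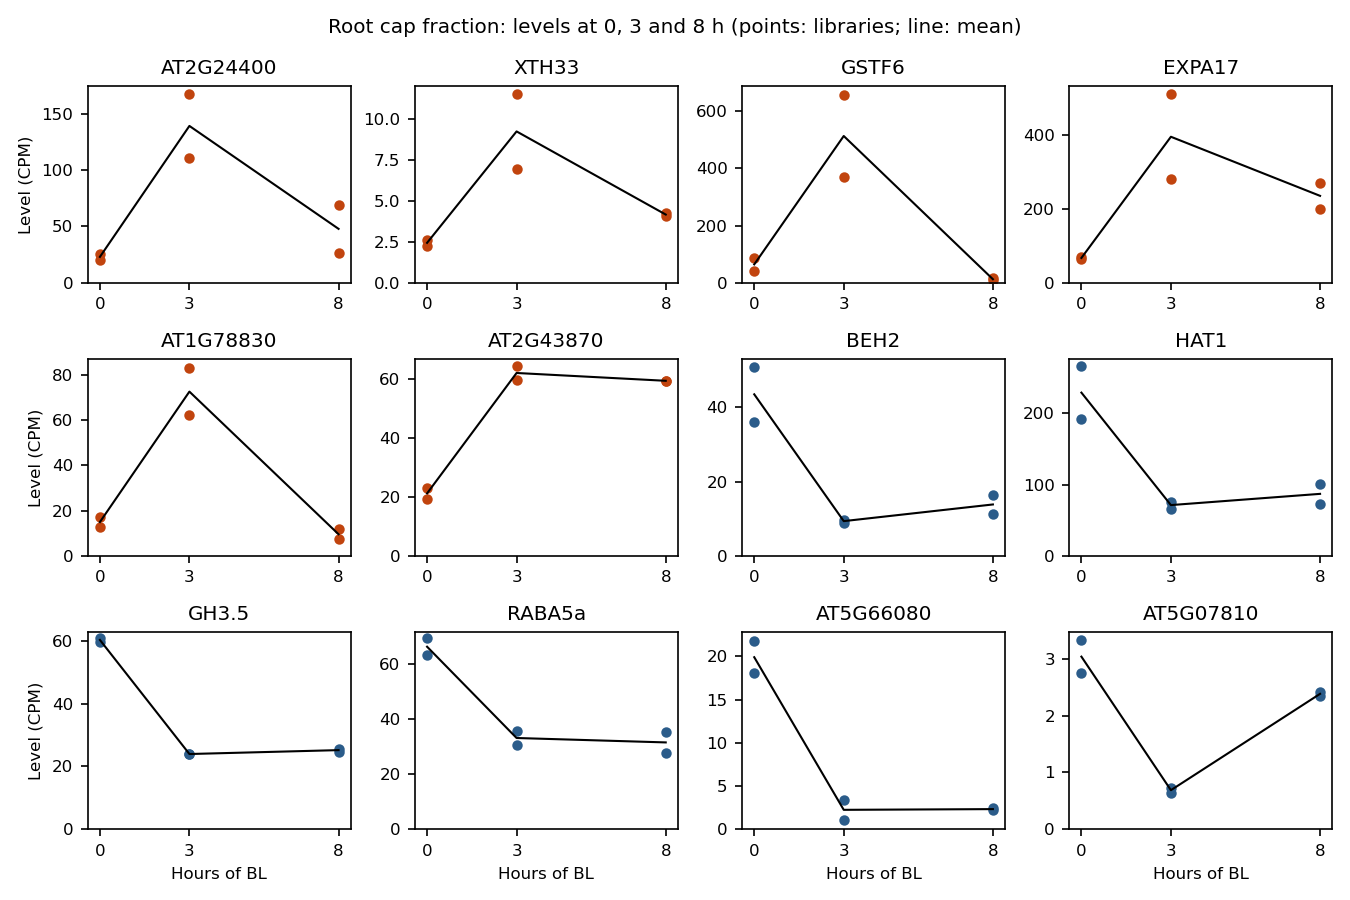
Levels in CPM of 12 genes in the root cap fraction at 0, 3 and 8 h of BL, with points for the 2 libraries of each time and a line through the means. Orange genes were higher at 3 h than at 0 h and blue genes lower. GSTF6 peaks at 3 h and lies at 15.4 and 8.58 CPM at 8 h, AT2G43870 lies at 59.3 and 59.4 CPM at 8 h, and AT5G07810 is low at 3 h only.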

How the data were processed

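Polysome-bound mRNA was sequenced as 50 bp single-end reads from TruSeq RNA v2 libraries, a kit that does not mark strand, per the labels' protocols and, for the reads, the series design. The submitters' processing notes name FastQC 0.10.1, TopHat2 2.0.9, HTSeq 0.5.3p3 and the TAIR10 build. The authors deposited raw read counts as whole numbers for each gene in 1 table with 0 columns of other samples. Symbols and products came from RefSeq by locus code.

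Genes were filtered with filterByExpr, scaled with TMM and tested with the quasi-likelihood test of edgeR 4.0.16 (R 4.3.3, robust, 1 mean for each of 24 groups, all 48 libraries in 1 fit), with Benjamini-Hochberg adjustment over 20995 genes. The spread is thus pooled over all groups (common dispersion 0.0485, median prior degrees of freedom 6.2). CPM values were computed from the deposited counts on the TMM library size. The genes kept made up 99.98 percent or more of each library. Of the 192 called genes, 10 overlap an entry on the opposite strand, among them DGR2, NAC102, ATAF2 and OPT6. Reads in the shared bases cannot be told apart. The overlap ran from 8 bases in OPT6 to 2754 bases in AT3G17998. Counts were simulated with a dispersion of 0.05 for every gene, and the changed genes were drawn from those with at least 8 CPM at 0 h. Of these, 31 of 100 changed 2-fold and 98 of 100 changed 4-fold were recovered, and 5 unchanged genes were called.

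Alternatives were RLE scaling, no filter, DESeq2 1.42.0, the Col-0 libraries alone, the compared groups alone, a replicate block and each library left out. The markers of the libraries labelled pGL2(pSCRBRI1) are not given here, so their label is left unchecked. These libraries enter only the shared spread, and the fit of 30 Col-0 libraries is without them. Genes named were the 15 with the largest change in each direction at a mean of at least 8 CPM with a symbol or described product, the 10 with the smallest p in each direction, and members of gene lists, not all of which are described. Members and lists were chosen with earlier results of these data known.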

Additional observations from a re-analysis of the deposited data

Results flagged for a closer look

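The 3 h response of 2 genes differed between the root cap fraction and the mean of the pGL2, pSCR and pSHR lines in the test of that difference: RABA5a by -0.95 and AT5G07810 by -1.97 on the log2 scale. Among the genes named by rule, 10 differed between 8 h and 3 h in the root cap fraction, in tests that share the 3 h libraries with the comparison that named them. On the log2 scale of 8 h over 3 h, 9 were lower: GSTF6 by -5.43, AT1G78830 by -2.93, AT3G15356 by -2.31, MC6 by -1.72, AT5G40590 by -1.70, AT4G07820 by -1.67, AT2G24400 by -1.55, XTH33 by -1.15 and AT2G42060 by -1.10. AT5G07810 was higher, by 1.79. AT5G40590, which encodes a C1 domain protein, had 106 and 139 CPM at 0 h, 39.7 and 42.5 CPM at 3 h, and 14.3 and 11.1 CPM at 8 h, so of these 10 it alone had the same sign in its changes of 3 h over 0 h and of 8 h over 3 h. Its early fall did not pass without 3 h replicate 1 (adjusted p = 0.116), 3 h replicate 2 (0.0857) or 0 h replicate 2 (0.243), nor its later one without 8 h replicate 2 (0.192) or 3 h replicate 2 (0.0548). Between 8 h and 3 h, MC6 passed only without 8 h replicate 1 (otherwise 0.0545 to 0.315) and not with the Col-0 libraries alone (0.0623), and AT4G07820 only without 3 h replicate 1 (otherwise 0.0597 to 0.119). AT3G15356 did not pass without 8 h replicate 2 (0.155), nor AT2G42060 without 3 h replicate 2 (0.0995). With the compared groups alone, GSTF6, AT1G78830 and AT3G15356 were the ones of these 10 that passed.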

How the results depend on the processing

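None of the 192 genes called at 3 h changed direction under any alternative run. Their groups did not overlap, so leaving out 1 library could hardly turn the sign, and this is no measure of stability. Of 297 list members that were not called, 125 had the opposite sign in at least 1 alternative, BRI1 and BZR1 among them, and so did the medians of 15 of 28 lists. At 3 h against 0 h, the 94 higher and 98 lower genes became 86 and 100 with RLE scaling, 74 and 82 with no filter, 196 and 169 with DESeq2, 80 and 71 with the Col-0 libraries alone, and 0 and 0 with the compared groups alone, where only 4 libraries estimate the spread. DESeq2 kept 93 of the higher and 96 of the lower genes, and the Col-0 fit 58 and 65. Leaving out 1 library gave 18 to 111 higher and 27 to 104 lower genes. The difference of responses, 2 genes, became 9 with DESeq2, 1 with the Col-0 libraries alone, 0 with the compared groups alone, and 0 to 3 without 1 library. The 245 genes called between 8 h and 3 h became 165 with no filter, 166 with the Col-0 libraries alone, 550 with DESeq2, 8 with the compared groups alone, and 57 to 1272 without 1 library.

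The labels do not say that replicate numbers pair libraries, and 2 pairs cannot show it, though same-numbered libraries deviated together (correlation 0.436 between 3 h and 0 h). With the replicate block 341 higher and 423 lower genes were called at 3 h, 18 in the difference of responses, and 926 between 8 h and 3 h.

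With 2 libraries in a group, 31 percent of simulated 2-fold changes were recovered. The simulation gave every gene the same dispersion, so it sets no limit of detection for the real genes. Some called genes changed less than 2-fold. The smallest size of change on the log2 scale was 0.75 among the higher and 0.66 among the lower genes. A gene that was not called is not shown to be unchanged.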

Other observations

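Changed genes were in 5 cases direct neighbours on the chromosome, and both members of each pair changed in the same direction without overlapping. AT1G15630 and AT1G15640, both of uncharacterized product, lie 858 bases apart on chromosome 1 and changed by 2.77 and 2.09 on the log2 scale of 3 h over 0 h. EDA12 and NHL12 lie 851 bases apart on chromosome 2 and changed by 2.89 and 1.92. The others were AT1G72620 with ELF4-L2, AT4G33800 with AT4G33810 (-1.95 and -1.58) and BSK5 with AT5G59020 (-1.24 and -1.10). No comparison with the spacing of other genes was made.

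Some families were counted after their values were seen. Of 77 tested NAC transcription factors 0 rose and 2 fell, with a family median of 0.21: NAC102 had 89.0 and 69.4 CPM at 3 h and 174 and 146 CPM at 0 h, and ATAF2 had 73.7 and 60.0 CPM at 3 h and 131 and 130 CPM at 0 h. Both overlap another entry on the opposite strand, by 85 bases in NAC102 and 158 bases in ATAF2. NAC102 did not pass without 3 h replicate 2 (adjusted p = 0.101) or 0 h replicate 1 (0.078), and ATAF2 in none of the fits without 1 library (0.062 to 0.186). Of 512 tested genes with pentatricopeptide or tetratricopeptide repeats, 5 fell and 0 rose, at a median of -0.18. One of them is the kinase BSK5, and the other 4 were under 2 CPM in every library.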
